A study of Mus musculus with 16 samples.

Results

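The 7 mRNAs that mouse mitochondrial DNA encodes for complex I of the respiratory chain were followed through 16 libraries in which testis RNA had been divided by its binding to an antibody against double-stranded RNA. They were chosen by name, as mt-Nd1, mt-Nd2, mt-Nd3, mt-Nd4, mt-Nd4l, mt-Nd5 and mt-Nd6, and not by a rule on their values. Earlier results of these data were known when they were chosen. All 7 were found among 35920 genes in the deposited table, of which 35446 had a symbol. mt-Cytb, which encodes cytochrome b of complex III, was added as the gene next to mt-Nd6.

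Complex I is the NADH dehydrogenase of the inner mitochondrial membrane. It passes electrons from NADH to ubiquinone and pumps protons, and its membrane arm is built around the subunits encoded in mitochondrial DNA. Both strands of that DNA are transcribed as long RNAs that are then cut into tRNAs, rRNAs and mRNAs. Most mRNAs come from the heavy-strand transcript, whereas mt-Nd6 is the sole mRNA cut from the light-strand transcript. Most of the rest of the light-strand RNA is antisense to heavy-strand genes and is normally degraded by a helicase and exonuclease pair, SUV3 and PNPase. In human cells, RNA from both strands that escapes degradation can pair, and the J2 antibody recognises it.

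J2 is a mouse monoclonal antibody to double-stranded RNA. RNA captured by it (J2) and RNA left behind (flow-through, described in the labels as depleted of rRNA and dsRNA) were sequenced as separate strand-specific libraries. Testis labelled Dicer KO (genotype Dcr-/-, lacking Dicer, an RNase that acts on double-stranded RNA and matures microRNAs) was taken at postnatal day 18 (P18), with 3 J2 and 3 flow-through libraries. Adult testis of wild-type genotype gave 2 and 2. Wild-type testis at P18, the group against which both others are set here, gave 3 and 3. The P18 mice were C57BL/6 x 129S4/SvJae, while the strain of the adults is given as unknown, so age and strain cannot be told apart. The labels name no Cre or promoter for the knock-out, state no exact age for the adults and do not say that libraries came from separate animals, so the p-values measure the spread between these libraries, which may be technical.

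Values are the authors' normalized counts, called units below. Library totals were 445600 to 823730 units in J2 and 6053860 to 34859600 units in flow-through. Without the mitochondrial genes and the 10 highest other features they were 196284 to 277298 units in J2 and 174821 to 411395 units in flow-through. The 2 mitochondrial rRNAs summed to 1874 to 33485 units in J2 and 87934 to 260926 units in flow-through, despite the rRNA depletion in the labels. A single read was worth about 0.116 to 0.516 units in J2 libraries and 2.0 to 8.31 units in flow-through libraries. These worths are approximate and less well supported in flow-through, but by them a low value is far better measured in J2. Dicer1 was listed at 0 to 3.39 units in knock-out J2 and 0 to 8.33 units in knock-out flow-through, against 0 to 11.3 and 0 to 12.4 units in the wild-type P18 fractions, which is too low to check the genotype labels. All 8 spermatocyte markers were above 0 in every group. The second adult J2 library stood apart, with 17573 units of mt-Co1 against 784 to 2009 units in the other 7 J2 libraries.

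The members lie on the mitochondrial chromosome (MT, GRCm38.p6, the assembly that mm10 names). mt-Nd1 spans positions 2751 to 3707 and mt-Nd2 spans 3914 to 4951. mt-Nd3 spans 9459 to 9806, followed by mt-Nd4l at 9877 to 10173 and mt-Nd4 at 10167 to 11544, with 7 bases shared by the last pair. mt-Nd5 spans 11742 to 13565 and mt-Nd6 spans 13552 to 14070, so their annotated ends share 14 bases. A gap of 74 bases separates mt-Nd6 from mt-Cytb, at 14145 to 15288. Whether the quantification used the strand of the reads is not given in the sources used here. Without it, reads of an antisense RNA over mt-Nd5 or mt-Cytb cannot be told apart from reads of the mRNA. Nuclear copies of mitochondrial DNA can also share reads with the members, and the 6 genes of the chromosome 1 insertion were not analysed here.

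In flow-through, mt-Nd1 was the most abundant member and mt-Nd6 among the least, in all 3 conditions. mt-Nd1 encodes the subunit at the junction of the membrane and peripheral arms. Per kilobase of annotated length, it averaged 1402 ± 600.2 units in knock-out (SD, n = 3), 1404 ± 678 units in adult (SD, n = 2) and 1406 ± 321 units in wild-type P18 flow-through (SD, n = 3). mt-Nd6, a small membrane subunit, averaged 102 ± 57.5, 68.3 ± 34.1 and 86.8 ± 38.6 units per kilobase in the same order of conditions. mt-Nd2 and mt-Nd5, which encode proton-pumping subunits of the membrane arm, lay between them. mt-Nd2 was at 327 ± 95.5, 511 ± 358 and 335 ± 173 units per kilobase, and mt-Nd5 at 201 ± 111, 135 ± 13.3 and 142 ± 76.7. Within libraries the order was the same throughout, with mt-Nd1 above mt-Nd2, mt-Nd2 above mt-Nd5 and mt-Nd5 above mt-Nd6 per kilobase in 8 of 8 flow-through libraries.

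In J2 the order was different. mt-Nd6 had the highest level per kilobase in knock-out J2, at 262 ± 174 units, ahead of mt-Nd1 at 203 ± 46.9 and mt-Nd5 at 169 ± 30.8 (SD, n = 3 each). By group mean it was also highest in adult J2, at 494 ± 236 units, against 359 ± 294 for mt-Nd1 and 256 ± 278 for mt-Nd5 (SD, n = 2 each). There mt-Nd4l was second, at 449 ± 633 units (SD, n = 2). In the second adult J2 library mt-Nd4l was above mt-Nd6, at 897 against 661 units. In wild-type P18 J2 mt-Nd6 ranked lower, at 45.4 ± 25.3 units, below mt-Nd1 at 188 ± 83.6 and mt-Nd5 at 84.4 ± 22.5 (SD, n = 3 each). Within libraries, mt-Nd1 was above mt-Nd5 per kilobase in 8 of 8 J2 libraries. mt-Nd6 was above mt-Nd1 in 2 of 3 knock-out, 2 of 2 adult and 0 of 3 wild-type J2 libraries, and it was below mt-Nd5 in all 3 of the last.

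**Figure D1:**
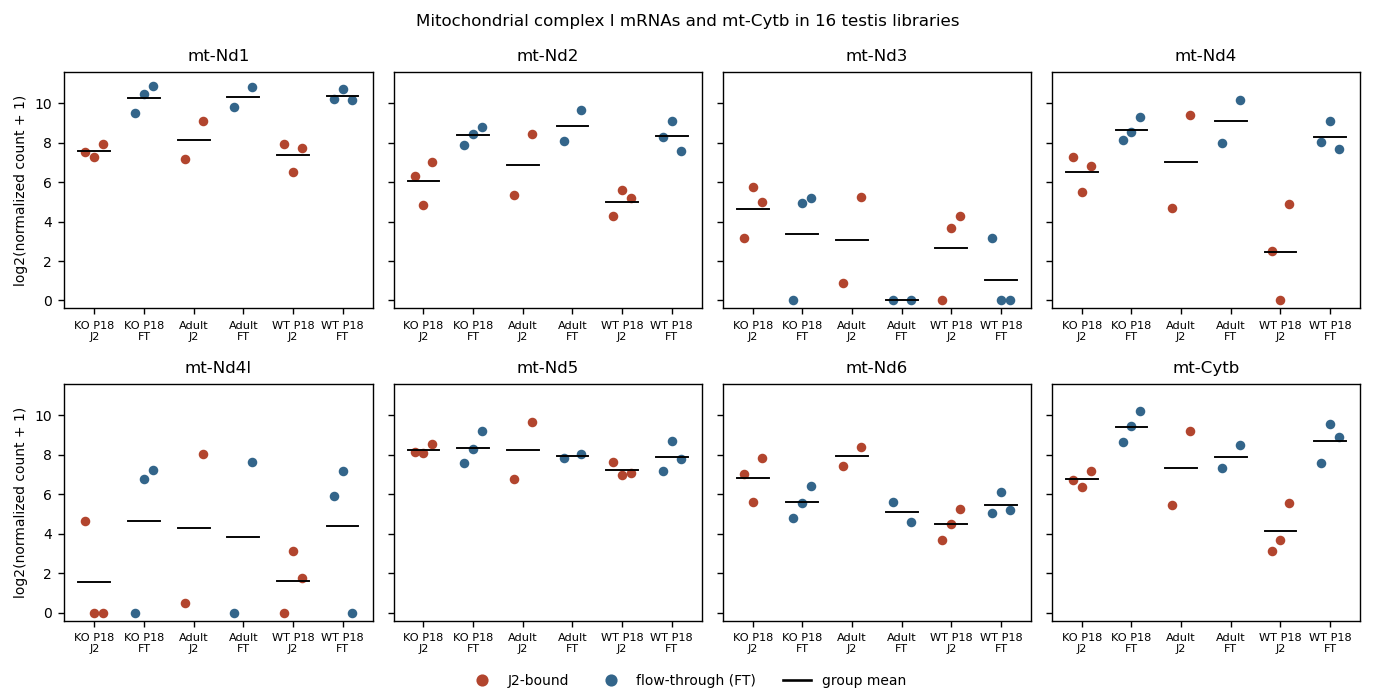
Values of the 7 mt-Nd mRNAs and mt-Cytb in each of the 16 libraries, as log2(normalized count + 1), with J2-bound libraries in red, flow-through (FT) libraries in blue and bars at group means. mt-Nd1 is lower in all 8 J2 libraries than in any flow-through library, at 89.1 to 543 against 727 to 1864 units on the authors' scaling. mt-Nd6 is at 169.9 and 343 units in adult J2, against 23.0 and 48.0 units in adult flow-through.

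The first question was which members the antibody took up relative to the RNA it left behind. On the authors' scaling, under which the median gene differed little between J2 and flow-through, mt-Nd1, mt-Nd2 and mt-Nd4 were lower in J2 than in flow-through in all 3 conditions. mt-Nd5 was near equal, and mt-Nd6 was the one member with a positive log2 change of more than 1 in both knock-out and adult testis, leaving aside mt-Nd3 and mt-Nd4l, which were listed at 0 in several libraries. Setting the non-mitochondrial genes of all libraries to a common total moved the median log2 change of all genes to 2.26 in knock-out, 3.04 in adult and 1.83 in wild type, from values between -0.15 and 0.05. The mt-Nd1 and mt-Nd2 changes then became positive in all 3 conditions and that of mt-Nd4 in knock-out and adult. This common total depends largely on the 10 highest features. With those 10 left out of it, the median over all genes was -0.06 in knock-out, 0.09 in adult and -0.20 in wild type. The directions below are thus relative to the median gene on the authors' scaling and are not amounts of RNA. mt-Nd1, mt-Nd2 and mt-Nd4 stayed below the median on the authors' scaling and with the full common total. With the full common total, mt-Nd5 (from -0.64 to 3.30) and mt-Nd6 (from -0.97 to 2.88) moved in wild type from below the median to above it. mt-Cytb did so in adult (from -0.57 to 4.0). The medians are over 9526 genes on the authors' scaling, 12372 with the common total and 9609 without the 10 features.

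mt-Nd1 was at 186, 154 and 243 units in knock-out J2, against 727, 1435 and 1864 units in knock-out flow-through. Adult J2 held 145 and 543 units, against 884 and 1802 units in adult flow-through. In wild-type P18 it had 241, 89.1 and 208 units in J2, against 1205, 1698 and 1134 units in flow-through. The fractions did not overlap in any condition.

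mt-Nd2 was at 78.1, 27.4 and 128 units in knock-out J2, against 238, 343 and 436 units in knock-out flow-through. It had 39.4 and 348 units in adult J2, against 267 and 793 units in adult flow-through. Wild-type P18 J2 held 18.3, 46.7 and 35.5 units, against 309.6, 544 and 190.2 units in flow-through. The fractions were apart at P18 and overlapped in the adult, where the second J2 library was the higher one.

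mt-Nd4, like mt-Nd2 a proton-pumping subunit, was at 154, 44.7 and 112 units in knock-out J2, against 282, 366 and 636 units in knock-out flow-through. It had 24.4 and 686 units in adult J2, against 249.8 and 1159 units in adult flow-through. In wild-type P18 it had 4.67, 0 and 29.0 units in J2, against 263, 549 and 205 units in flow-through. Here too the fractions were apart at P18 and overlapped in the adult, and wild-type J2 had the lowest mean of the 6 groups.

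mt-Nd5 had 279.8, 273 and 374 units in knock-out J2, against 193, 317 and 590.1 units in knock-out flow-through. Its adult values were 109 and 825 units in J2, against 229 and 264 units in flow-through. In wild-type P18 J2 it was at 201, 127 and 134 units, against 142, 414 and 221 units in flow-through. The fractions overlapped in every condition.

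mt-Nd3 and mt-Nd4l, the shortest members, encode small membrane subunits. mt-Nd3 was listed at 0 in 1 of 8 J2 libraries and 5 of 8 flow-through libraries, and reached 52.8 units in J2 and 35.3 in flow-through. mt-Nd4l was listed at 0 in 3 of 8 libraries of each fraction, and reached 266 units in J2 and 197 in flow-through, both in the second adult library. With so many zeros no fold is given for either gene.

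With limma over all 16 libraries, 2 of the 7 members were called lower in wild-type J2 than in wild-type flow-through at an adjusted p under 0.05, beside 0.378% of all 9526 genes tested (0.903% in either direction). mt-Nd1 fell by 3.0 on the log2 scale (SE 0.61, adjusted p = 0.024) and mt-Nd4 by 5.81 (SE 1.15, adjusted p = 0.020). mt-Nd2, at -3.30 (SE 0.81, adjusted p = 0.062), and mt-Nd5, at -0.64 (SE 0.70, adjusted p = 0.73), were not called. mt-Nd2 was called with a filter at 50 (limma adjusted p = 0.018) and with only the 2 groups fitted (0.029). Without single wild-type libraries the mt-Nd1 change was between -3.27 and -2.56 and lost its call without flow-through replicate 1, 2 or 3 or J2 replicate 2. That of mt-Nd4 was between -7.03 and -4.57 and kept its call only without J2 replicate 3. Without a filter on low values neither was called (adjusted p = 0.088 for mt-Nd1 and 0.12 for mt-Nd4), and after quantile normalization mt-Nd1 was not (adjusted p = 0.072). After the common-total rescaling the mt-Nd1 change was 0.95 and that of mt-Nd4 was -2.92 (adjusted p = 0.25).

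In knock-out testis limma called 0 of the 7, beside 0.357% of all genes, and 2 (mt-Nd1 and mt-Nd2) had an unadjusted p under 0.05, as had 11.5% of all genes. The log2 changes were -2.70 for mt-Nd1 (SE 0.61, adjusted p = 0.068), -2.32 for mt-Nd2 (SE 0.81), -2.13 for mt-Nd4 (SE 1.15) and -0.11 for mt-Nd5 (SE 0.70). In adult testis it also called 0 of the 7, beside 0.315% of all genes, and mt-Nd1 and mt-Nd6 had an unadjusted p under 0.05, as had 6.64% of all genes. The adult changes were -2.17 for mt-Nd1, -1.96 for mt-Nd2, -2.03 for mt-Nd4 and 0.29 for mt-Nd5, with SE of 0.75 to 1.41. Without the second adult J2 library these were -3.12, -3.51, -4.41 and -1.17 in the same order of genes. Without the first they were -1.22, -0.40, 0.35 and 1.74. The median over the 7 members, including those listed at 0, was -2.13 in knock-out, 0.29 in adult and -2.76 in wild-type testis, against -0.15, 0.05 and -0.05 over all genes. The adult median was -3.12 without the second adult J2 library, -2.68 without the first adult flow-through library and 1.74 without the first adult J2 library.

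The members without overlap between fractions, all lower in J2, were mt-Nd1, mt-Nd2 and mt-Nd4 in knock-out and again in wild-type testis, 3 of 7 each, beside 11.1% of all genes that were lower without overlap in knock-out and 8.3% in wild type. In adults mt-Nd1 was lower and mt-Nd3 and mt-Nd6 were higher in J2 without overlap, beside 35.7% of all genes without overlap in either direction. For mt-Nd3 this rests on zeros in each adult flow-through library and 0.826 units in the first adult J2 library. That value is below the approximate worth of 1 read in adult flow-through (4.83 and 2.14 units).

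mt-Nd6, the light-strand mRNA, had its highest values in adult and knock-out J2. It was at 130.0, 48.3 and 229 units in knock-out J2, against 27.3, 46.4 and 85.8 units in knock-out flow-through. Adult J2 held 169.9 and 343 units, against 48.0 and 23.0 units in adult flow-through. In wild-type P18 it was at 11.8, 21.3 and 37.7 units in J2, against 31.7, 68.1 and 35.4 units in flow-through. The adult fractions were apart and those of knock-out and wild type overlapped.

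The log2 changes of mt-Nd6 in J2 relative to flow-through were 1.22 in knock-out (SE 0.78, limma adjusted p = 0.59), 2.82 in adult (SE 0.96, adjusted p = 0.57) and -0.97 in wild type (SE 0.78, adjusted p = 0.61), and none was called. The adult change was 2.32 without the second adult J2 library and 3.33 without the first. The wild-type change was 2.88 after the common-total rescaling. By the approximate worth of 1 read, the flow-through values of mt-Nd6 stand for only about 3.37 to 34.0 reads per library, against 27.7 to 2960 reads in J2. The flow-through side thus limits the precision. By group mean, mt-Nd6 ranked as adult J2 (256 ± 122 units, SD, n = 2), knock-out J2 (136 ± 90.5), knock-out flow-through (53.2 ± 29.8), wild-type flow-through (45.1 ± 20.04), adult flow-through (35.5 ± 17.7, n = 2) and wild-type J2 (23.6 ± 13.1; SD, n = 3 for the P18 groups). Neighbours in this order did not differ beyond their spread.

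**Figure D2:**
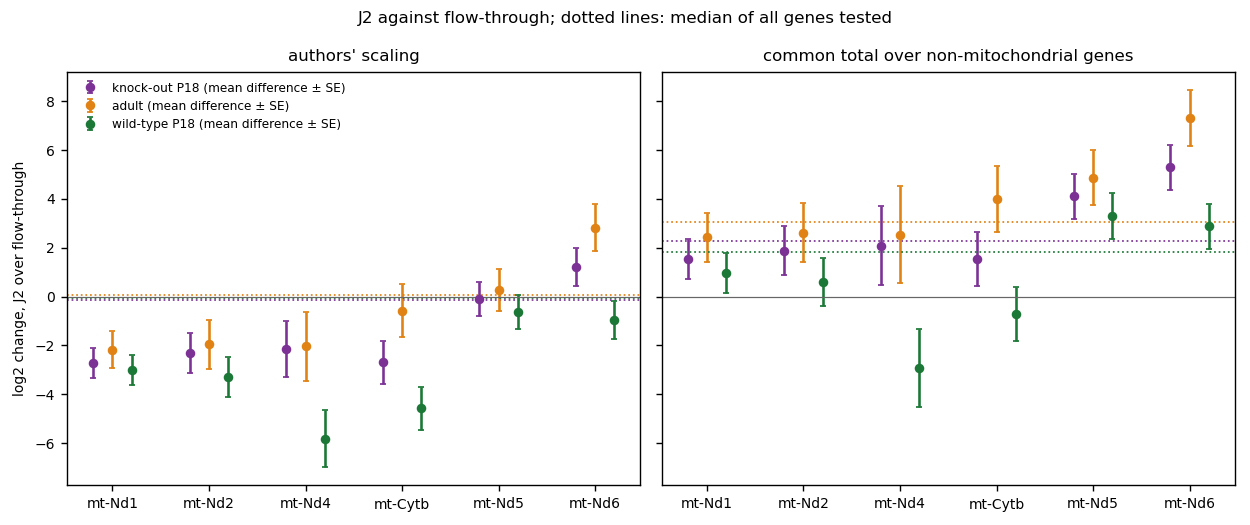
Log2 change of 5 mt-Nd mRNAs and mt-Cytb in J2 over flow-through, with points at the difference of means and bars of 1 SE, on the authors' scaling (left) and after rescaling to a common total over non-mitochondrial genes (right), in knock-out, adult and wild-type testis. On the left mt-Nd1, mt-Nd2 and mt-Nd4 lie below the dotted medians of all genes and mt-Nd6 reaches 1.22, 2.82 and -0.97; on the right nearly all points are positive and mt-Nd6 is at 5.30, 7.31 and 2.88, against medians of 2.26, 3.04 and 1.83.

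A ratio taken within a library does not depend on the scaling between libraries, apart from the added 1. The second question was therefore how the light-strand mt-Nd6 stood to its heavy-strand neighbours. mt-Cytb was at 105, 81.4 and 144 units in knock-out J2, against 402, 699 and 1191 units in knock-out flow-through. It had 43.0 and 599.5 units in adult J2, against 161 and 360.0 units in adult flow-through. Wild-type P18 J2 held 7.74, 12.0 and 45.5 units, against 193, 762 and 485 units in flow-through. In wild type it was called lower by limma, by 4.58 on the log2 scale (SE 0.88, adjusted p = 0.016), but not after the common-total rescaling (-0.71), without a filter on low values (adjusted p = 0.091), nor without flow-through replicate 2 or 3 or J2 replicate 1 or 2 (-4.46 to -4.08).

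The ratio of mt-Nd6 to mt-Cytb was higher in all 8 J2 libraries than in any flow-through library. In knock-out J2 the ratios were 1.24, 0.598 and 1.58, against 0.0703, 0.0678 and 0.0728 in knock-out flow-through. In adult J2 they were 3.88 and 0.573, against 0.303 and 0.0664 in adult flow-through. Wild-type P18 J2 had 1.46, 1.71 and 0.832, against 0.169, 0.0906 and 0.0749 in flow-through. In units not divided by length, mt-Nd6 thus passed mt-Cytb in 5 of 8 J2 libraries, and in flow-through the ratio stayed at 0.303 or below. Per kilobase, mt-Nd6 averaged 262, 494 and 45.4 units in knock-out, adult and wild-type J2, against 96.4, 281 and 19.0 for mt-Cytb. In flow-through it averaged 102, 68.3 and 86.8 units per kilobase, against 667, 228 and 419 for mt-Cytb.

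Averaged over conditions, the log2 ratio was 3.64 higher in J2, which is 12.4-fold. A two-sided exact permutation test that exchanged fraction labels within conditions gave p = 0.00083 (0.0017 after Benjamini-Hochberg adjustment over the 2 ratios), the smallest p that 2400 arrangements can give. The difference was 3.91 in knock-out, 3.39 in adult and 3.61 in wild-type testis. Within a single condition the exact permutation test cannot go below 0.1 with 3 against 3 libraries, nor below 0.333 with 2 against 2, and these were the values obtained (0.2, 0.4 and 0.2 adjusted over the 6 tests by condition). The overall difference was 3.18 to 4.10 when single libraries were left out. That in adult was 4.77 without the second adult J2 library and 2.01 without the first.

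Against mt-Nd5, the difference was smaller and varied between conditions. The ratio of mt-Nd6 to mt-Nd5 was 0.466, 0.180 and 0.614 in knock-out J2, against 0.146, 0.149 and 0.147 in knock-out flow-through. It was 1.56 and 0.416 in adult J2, against 0.213 and 0.0905 in adult flow-through. In wild-type P18 it was 0.0632, 0.174 and 0.287 in J2, against 0.229, 0.167 and 0.164 in flow-through. The fractions were apart in knock-out and adult and overlapped in wild type.

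Over all conditions this log2 ratio was 1.18 higher in J2 (2.27-fold), with a two-sided exact permutation p of 0.055. By condition the difference was 1.34 in knock-out (exact permutation p = 0.1), 2.54 in adult (p = 0.333) and -0.33 in wild type (p = 0.9). The adult difference was 3.49 without the second adult J2 library and 1.58 without the first. Without single libraries the overall value lay between 0.86 and 1.5 and p between 0.0067 and 0.16. It passed 0.05 without knock-out J2 replicate 2 (1.36), wild-type flow-through replicate 1 (1.23) or wild-type J2 replicate 1 (1.38). The part of antisense reads in mt-Nd5 and mt-Cytb was not tested.

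**Figure D3:**
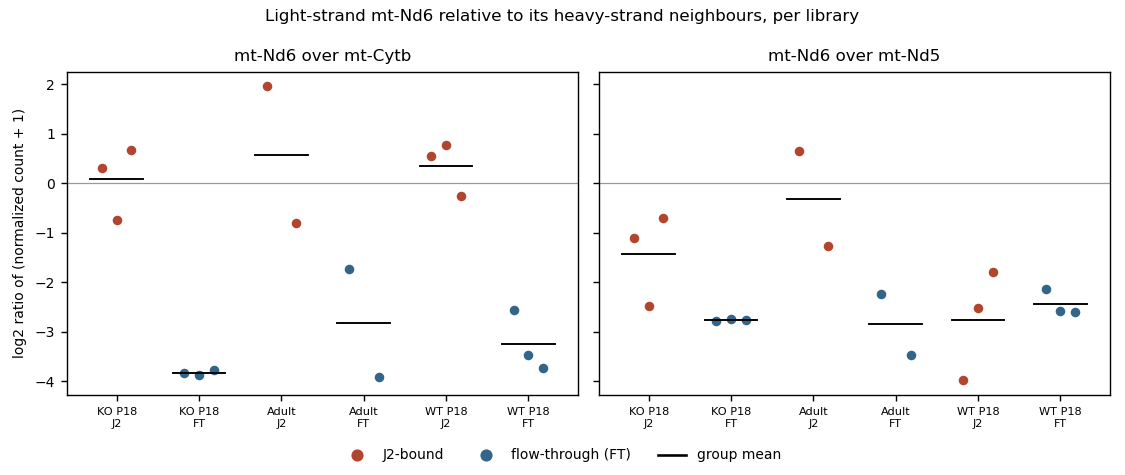
Log2 ratio of mt-Nd6 to mt-Cytb (left) and to mt-Nd5 (right) in each library, from (normalized count + 1), with J2-bound libraries in red, flow-through (FT) libraries in blue and bars at group means. On the left all 8 J2 libraries lie between -0.80 and 1.96 and all 8 flow-through libraries between -3.91 and -1.72; on the right the fractions overlap in wild type.

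The makeup of the complex I mRNAs also differed between fractions. Of the summed units of the 7 members, mt-Nd6 held 2.47% to 34.8% in J2 (median 9.67%), against 0.542% to 2.86% in flow-through (median 1.92%). mt-Nd5 held 22.2% to 45.5% in J2 (median 33.0%), against 6.22% to 15.5% in flow-through (median 12.2%), and its fractions did not overlap. mt-Nd1 held 17.8% to 50.5% in J2 (median 27.5%), against 42.5% to 63.5% in flow-through (median 51.2%). mt-Nd2 and mt-Nd4 had medians of 8.58% and 6.85% in J2, against 15.6% and 15.5% in flow-through. mt-Nd5 and mt-Nd6 thus took more of the J2 sum and mt-Nd1 less, given as a description with no test.

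The 7 members together made up 13.03% to 31.5% of the summed units of the 13 mitochondrial mRNAs in J2, against 32.1% to 62.4% in flow-through. mt-Co1, which encodes the catalytic subunit of cytochrome c oxidase, took 51.8% to 75.1% of that sum in J2, against 11.4% to 21.3% in flow-through.

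**Figure D4:**
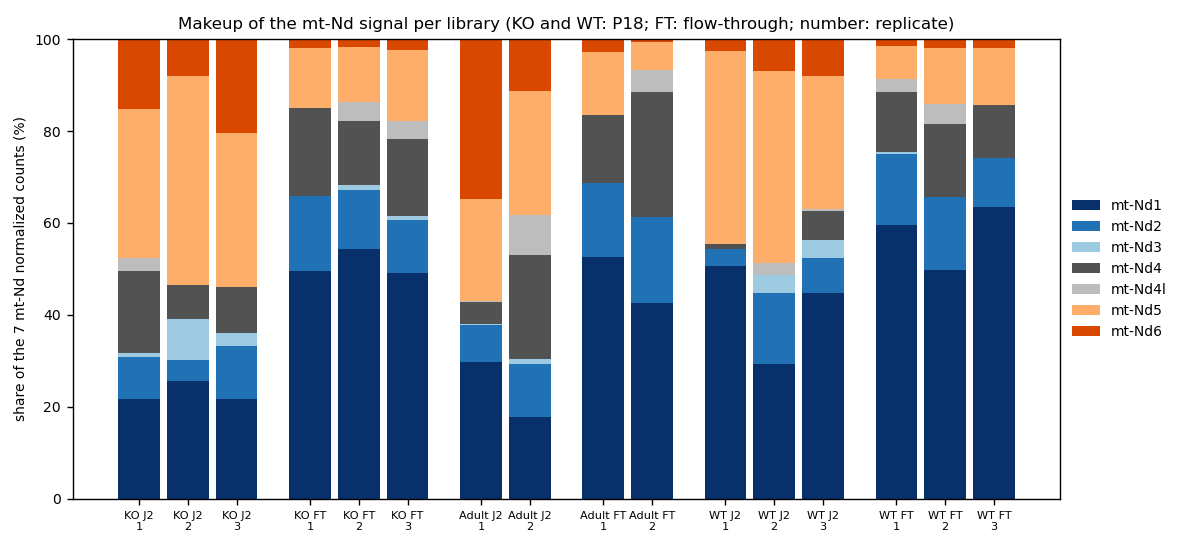
Share of each member in the summed normalized counts of the 7 mt-Nd mRNAs, 1 bar per library (percent; KO and WT at P18, FT flow-through, numbers are replicates). mt-Nd5 and mt-Nd6 (orange and red) take larger shares in J2 bars, and mt-Nd1 (dark blue) takes 42.5% to 63.5% of each flow-through bar.

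The knock-out comparison asks what loss of Dicer does to these RNAs in each fraction. In J2 the 4 genes mt-Nd4, mt-Nd5, mt-Nd6 and mt-Cytb were higher in each knock-out library than in any wild-type P18 library, but none passed the test. mt-Nd6 was at 136 ± 90.5 units in knock-out J2 and 23.6 ± 13.1 units in wild-type J2 (SD, n = 3 each), a log2 change of 2.36 (SE 0.77, limma adjusted p = 0.70). mt-Nd5 was at 309 ± 56.2 units in knock-out J2 and 154 ± 41.0 units in wild-type J2, a log2 change of 1.02 (SE 0.73). For mt-Nd4 the log2 change was 4.06 (SE 1.47, adjusted p = 0.72) and for mt-Cytb 2.63 (SE 1.03), with a wild-type library listed at 0 for mt-Nd4. mt-Nd2 and mt-Nd1 overlapped between genotypes, with log2 changes of 1.04 (SE 0.95) and 0.21 (SE 0.66).

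Of the 7 members limma called 0, as it did for all 6882 genes tested in J2 (0%). An unadjusted p under 0.05 was reached by 2 members, mt-Nd4 and mt-Nd6, and by 440 genes in all (6.39%). Groups did not overlap, upward, for 3 of 7 members and for 6.12% of all genes. The median log2 change was 1.04 over the members and 0.13 over all genes. The 5 spermatogonium markers summed to 138 to 306 units in knock-out J2, against 49.4 to 106 units in wild-type J2, and the 4 tested all had positive log2 changes. The 8 spermatocyte markers summed to 517 to 657 units in knock-out J2, against 725 to 1545 units in wild-type J2. Of the 7 tested, 2 had positive log2 changes. Ldhc made up most of these sums, at 512 ± 108 units in knock-out J2 and 863 ± 423 units in wild-type J2 (SD, n = 3 each). Its values overlapped between the genotypes. Neither the spermatogonium nor the spermatocyte sum overlapped between the genotypes, though 0 of these markers were called. The sums of the 6 Sertoli markers overlapped, at 373 to 458 units in knock-out J2 and 183 to 443 units in wild-type J2. The 4 Sertoli markers tested all had positive log2 changes. In flow-through the spermatogonium sums overlapped, at 124 to 132 units in knock-out and 75.1 to 135 units in wild type. The spermatocyte sums there also overlapped, at 286 to 777 units in knock-out and 234 to 522 units in wild type. The Sertoli sums in flow-through did not, at 230 to 269 units in knock-out and 148 to 177 units in wild type. The part of these cell types in the members' values was not tested. In flow-through limma called 0 of the 7 and 0% of 7141 genes, while 436 genes (6.11%) and 0 members had an unadjusted p under 0.05. There the genotypes overlapped for all members (10.6% of all genes did not overlap), and the median change was 0.29 over the members and 0.33 over all genes.

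The ratio of mt-Nd6 to mt-Cytb did not separate the genotypes in J2, where the log2 ratio was 0.08 ± 0.73 in knock-out and 0.35 ± 0.55 in wild type (SD, n = 3 each, difference -0.28, exact permutation p = 0.6). The ratio to mt-Nd5 was -1.43 ± 0.93 in knock-out J2 and -2.77 ± 1.11 in wild-type J2 (SD, n = 3 each, difference 1.34, exact permutation p = 0.2). In flow-through both ratios were lower in each knock-out library than in any wild-type library, with log2 differences of -0.57 for mt-Cytb and -0.32 for mt-Nd5, each at the smallest exact permutation p of 0.1. Adjusted over the 8 comparisons of ratios between conditions, these were 0.27. Without single libraries the differences were -0.82 to -0.23 for mt-Cytb and -0.41 to -0.16 for mt-Nd5, nearest to 0 without wild-type flow-through replicate 1. After quantile normalization that for mt-Nd5 was -0.0445 (exact permutation p = 0.7) and that for mt-Cytb -0.31 (p = 0.4).

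In adult J2, all 7 members had positive log2 changes against wild-type P18 J2, and none was called. mt-Nd6 came nearest, at 256 ± 122 units in adult J2 (SD, n = 2) and 23.6 ± 13.1 units in wild-type P18 J2 (SD, n = 3), a log2 change of 3.45 (SE 0.87, limma adjusted p = 0.0502) with no overlap. It passed 0.05 with an added constant of 0.5 (0.0495), a filter at 50 (0.0492) and the common-total rescaling (0.046), and over all alternatives its adjusted p was 0.046 to 0.63. The log2 change was 4.57 for mt-Nd4 (SE 1.64, adjusted p = 0.21), 1.88 for mt-Nd2, 0.99 for mt-Nd5 and 0.76 for mt-Nd1. That of mt-Cytb was 3.22 (SE 1.15, adjusted p = 0.21).

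These values lean on the second adult J2 library. Without it the log2 changes were 2.94 for mt-Nd6, 2.19 for mt-Nd4, 0.32 for mt-Nd2, -0.47 for mt-Nd5, -0.19 for mt-Nd1 and 1.34 for mt-Cytb. Without the first, mt-Nd2 was at 3.44, mt-Nd4 (6.95, adjusted p = 0.0037) and mt-Cytb (5.11, adjusted p = 0.033) were called by limma. In both fits the remaining library was assumed to vary like the other groups. With all libraries, limma called 0 of 7 members in adult J2, beside 5.46% of all genes (5.07% upward), and 2 members, mt-Nd4 and mt-Nd6, had an unadjusted p under 0.05, as had 14.1% of all genes. The 349 genes called higher became 1 without the second adult J2 library, 5 without the first and 0 without a filter on low values. Groups did not overlap, upward, for mt-Nd6 alone among the 7, beside 18.7% of all genes. The members' median was 1.88 and that of all genes 0.33. Without the second adult J2 library 6 members were tested, 3 of them with positive changes, and the medians were 0.07 and -0.23.

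In adult flow-through limma also called 0 of 7, beside 3.23% of all genes, with 0 members and 11.7% of all genes at an unadjusted p under 0.05. The 220 genes called higher became 0 with either adult flow-through library left out, and 0 without a filter on low values. Their median change was -0.07, against 0.28 over all genes, and no member was without overlap between ages, beside 25.1% of all genes. All 8 spermatid markers were above 0 in adult testis, where they summed to 1725 to 1996 units in J2 and 2242 to 2534 units in flow-through. In wild-type P18 they summed to 0 to 2.45 units in J2 and 5.09 to 13.9 units in flow-through. There Prm1, Tnp2, Acrv1 and Akap4 were listed at 0 in every J2 library and Tnp1, Acrv1, Spaca1 and Odf1 in every flow-through library. The part of this change in cell types in the adult values was not tested, and in whole testis fewer cells of a type and less RNA per cell cannot be told apart. The log2 ratio of mt-Nd6 to mt-Nd5 was -0.31 ± 1.35 in adult J2 (SD, n = 2) and -2.77 ± 1.11 in wild-type P18 J2 (SD, n = 3), a difference of 2.46 at the smallest exact permutation p of 0.1. It was 3.41 without the second adult J2 library and 1.5 without the first. For mt-Cytb the difference was 0.22 (exact permutation p = 1), 1.6 without the second adult J2 library and -1.16 without the first.

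Whether the J2 to flow-through difference itself changed with genotype or age was tested as an interaction. limma called 0 of the 7 members and 0% of 9526 genes in both interactions. With genotype, 455 genes (4.78%) had an unadjusted p under 0.05, among them mt-Nd4 alone of the members. With age there were 514 (5.4%), with mt-Nd6 alone. Knock-out minus wild type, the interaction was 3.68 for mt-Nd4 (SE 1.62, adjusted p = 0.99) and 2.19 for mt-Nd6 (SE 1.1, adjusted p = 1.0). Adult minus wild type, it was 3.79 for mt-Nd6 (SE 1.23, adjusted p = 0.74), 3.78 for mt-Nd4 (SE 1.81) and 4.0 for mt-Cytb (SE 1.39, adjusted p = 0.79). The larger J2 signal of mt-Nd6 in knock-out and adult testis was thus not shown to differ from wild type.

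The remaining subunits of complex I are encoded in the nucleus and their mRNAs are translated in the cytosol. Of 37 listed, 36 were in the table and 32 were tested. limma called 0 of 32 in J2 against flow-through in each condition, beside 0.357%, 0.315% and 0.903% of all genes in knock-out, adult and wild-type testis. An unadjusted p under 0.05 was reached by 6, 0 and 7 of them in the same order, beside 11.5%, 6.64% and 13.9% of all genes. The median log2 change of the 32 was 1.60 in knock-out, 0.31 in adult and 0.90 in wild type, against -0.15, 0.05 and -0.05 over all genes. The change was positive for 27, 18 and 24 of the 32. Ndufv2, an iron-sulfur subunit of the NADH-binding module, averaged 56.8 ± 29.8 units in knock-out J2 and 24.4 ± 18.9 units in knock-out flow-through (SD, n = 3 each), with a log2 change of 1.5 (SE 0.79). In wild-type P18 it averaged 150 ± 31.2 units in J2 and 27.7 ± 2.33 units in flow-through (SD, n = 3 each), with a log2 change of 2.38 (SE 0.79, limma adjusted p = 0.16). Ndufa12, an accessory subunit, had log2 changes of 3.04 (SE 1.08) in knock-out, 0.64 in adult and 0.63 in wild-type testis.

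Of the 16 listed complex I assembly factors 7 were tested and 0 called by limma in each J2 to flow-through comparison, with 2, 1 and 2 at an unadjusted p under 0.05 in knock-out, adult and wild type. Of the 18 listed genes for mitochondrial RNA synthesis and decay 12 were tested and 0 called, with 1 in each condition at an unadjusted p under 0.05. The counts called stand beside the same 0.357%, 0.315% and 0.903% of all genes. Those at an unadjusted p under 0.05 stand beside 11.5%, 6.64% and 13.9%. Between adult and wild-type P18 J2, 1 of 8 tested genes of the last list was called higher, beside 5.07% of all genes. This was Tfam, which encodes the factor that packages mitochondrial DNA and starts its transcription, at 79.8 ± 9.12 units in adult J2 (SD, n = 2) and 0 to 0.759 units in wild-type J2 (log2 change 6.06, SE 1.27, limma adjusted p = 0.018). It was not called without a filter on low values (adjusted p = 0.095) or without wild-type J2 replicate 2 or 3 (0.063 and 0.069), and did not pass the filter with either adult J2 library left out.

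Among 9526 genes, those whose log2 values were most like the summed mt-Nd signal over the 16 libraries were Pot1b (Pearson r = 0.92), mt-Cytb (0.92) and Ctc1 (0.88). Pot1b and Ctc1, which encode telomere proteins, were low, at 0 to 22.2 and 0 to 9.87 units in J2 and 7.20 to 25.7 and 4.27 to 58.8 units in flow-through, the worth of a few reads there. Among those most like mt-Nd6 were Sp3 (0.87) and Ccp110 (0.84). The 16 libraries are of only 2 fractions and share one scaling, and the likenesses are given as descriptions. Within fractions, mt-Nd6 had r = 0.58 with mt-Nd5 and 0.88 with mt-Cytb over the 8 J2 libraries, and 0.80 and 0.59 over the 8 flow-through libraries.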

How the data were processed

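The data are RNA sequencing of J2-bound and flow-through RNA from mouse testis, in 16 libraries. The deposited values are a signal, normalized counts made by the authors, per Ensembl gene. Per the submitters' processing notes, FastQC, Trimmomatic, Salmon, DESeq2 and the build mm10 were used; versions, settings and the library type given to Salmon are not given in the sources used here. Per the labels' protocols, libraries were strand-specific (NuGEN Ovation SoLo).

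Among the 35920 genes, 474 had no symbol. Columns were mapped by their labels, with 0 left out, and no columns duplicated each other. The worth of 1 read was taken from a low value that recurs in a library, chosen by how many of its multiples also occur (up to 20, tolerance 1e-06). Counting the value itself, 11 to 20 multiples occurred in J2 libraries and 1 to 4 in flow-through libraries. In wild-type P18 flow-through replicates 1 and 3 it was 1, so no further multiple backs the worth there. Whole reads could not be recovered, so no count test was run. Reads per library came to about 1230000 to 4540000 in J2 and 1000000 to 5870000 in flow-through.

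limma 3.58.1 was applied to log2(value + 1) (R 4.3.3; moderated statistics with a mean trend, two-sided, Benjamini-Hochberg over all genes tested, threshold 0.05), among genes with a value of at least 10 in at least 2 of the libraries fitted. Log2 changes on this scale understate those of low genes. J2 against flow-through and the interactions used all 16 libraries; comparisons between conditions used the 8 libraries of a fraction. The fit was checked on simulated data. Ratios of mt-Nd6 to its neighbours were computed within libraries from (value + 1) and tested by exact permutation (scipy 1.17.1). Alternatives changed the added constant, the filter, the scaling, the libraries fitted and a block by shared code.

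Named genes are the 7 members and mt-Cytb, of each other list the genes called (at most 5) or else the 2 highest, and the 3 genes most like the members' sum and mt-Nd6, of which 1 is not reported here. The members and lists were chosen with earlier results of these data known.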

Additional observations from a re-analysis of the deposited data

How the results depend on the processing

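Direction between fractions rests on the scaling. With a common total over non-mitochondrial genes, the J2 to flow-through log2 changes turned positive in knock-out for mt-Nd1 (1.53), mt-Nd2 (1.89), mt-Nd4 (2.09), mt-Nd5 (4.10) and mt-Cytb (1.54). They did so in adult for mt-Nd1 (2.43), mt-Nd2 (2.62), mt-Nd4 (2.54) and mt-Cytb (4.0), and in wild type for mt-Nd1 (0.95), mt-Nd2 (0.61), mt-Nd5 (3.30) and mt-Nd6 (2.88). That scaling called 2 members higher in each condition (mt-Nd5 and mt-Nd6) and 0 lower. Beside them it called 2587 of all 12372 genes higher in knock-out, 3473 in adult and 2419 in wild type. It depends largely on the 10 highest features. Without those 10, the knock-out mt-Nd5 change was 0.0311, and no other member changed direction. Knock-out against wild type in J2, the mt-Nd1 change was -0.18 with the common total.

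Of the 2 members called lower in wild type, 0 were called without a filter, beside 20 of all 24220 genes. After quantile normalization 1 was called, beside 34 of 9526 genes. With single libraries left out 0 to 2 were called, beside 15 to 43 of all genes. With a filter at 50, 3 members were called lower in wild type, beside 60 of 2835 genes. With only the 2 groups fitted it was also 3, beside 24 of 5567 genes. In knock-out 1 was called lower with a filter at 50, beside 20 of 2835 genes, and 1 with only the 2 groups fitted, beside 26 of 6200. In adult against wild-type J2, 1 was called higher with an added constant of 0.5, a filter at 50 or the common total. Beside it 343 of 6882, 72 of 1888 and 783 of 12204 genes were called higher. Without any single wild-type J2 library 0 members were called. Leaving out single libraries gave -0.50 to 0.31 for mt-Nd5 in knock-out, and in adult -4.41 to 0.35 for mt-Nd4, -1.17 to 1.74 for mt-Nd5 and -2.46 to 1.31 for mt-Cytb. It gave -0.23 to 0.48 for mt-Nd1 in knock-out against wild-type J2, and -0.19 to 1.71 for mt-Nd1 and -0.47 to 2.45 for mt-Nd5 in adult against wild-type J2. The cause of these shifts was not tested.

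The mt-Nd6 to mt-Cytb ratio differed between fractions under each alternative run, by 3.18 to 4.10. That to mt-Nd5 differed by 0.86 to 1.5 with single libraries left out, and passed 0.05 with an added constant of 4 (1.16, exact permutation p = 0.044), and its flow-through genotype difference was -0.0445 after quantile normalization.

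A code in the column headers is shared by 1 flow-through and 1 J2 library. Deviations of libraries with the same code correlated at -0.03 to 0.03 across genes, and not every library correlated best with its own code, so the code gives only a shared number. With this replicate block 1 member was called lower in wild type, beside 17 of 9526 genes, and 0 elsewhere. In wild type mt-Nd1 was then at an adjusted p of 0.06 (limma). The ratio to mt-Cytb was higher in J2 in 8 of 8 pairs (exact permutation p = 0.0078) and that to mt-Nd5 in 7 of 8 (p = 0.086). Flow-through depth, estimated at about 3.37 to 34.0 reads of mt-Nd6 per library, limits each of these comparisons.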
